A study of Mus musculus with 2 samples.

Results

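The 42 genes described here make up a cell division module. The members are named genes that were looked up by symbol in a table of gene FPKM values (fragments per kilobase of gene length, scaled to library size) from mouse small intestine. All 42 were found among the 27275 genes of the table. They fall into 21 replication members, whose products copy DNA in S phase or prepare for it, and 21 mitosis members, whose products act mainly in the segregation of chromosomes. The symbols were listed by known function, with earlier results of these data known, and the rule that finds them uses no measured value. The question was how these genes differ between intestine with and without Spib, and whether replication and mitosis members differ to a like degree.

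RNA was taken from the proximal small intestine of untreated mice of 2 genotypes, with 1 library each. The library labelled WT has the genotype Spib+Villin-Cre in its label, and the library labelled KO has Spibfl/flVillin-Cre, so both labels name the Cre transgene. Cre driven by the villin promoter acts in the intestinal epithelium, so immune and stromal cells of the knockout keep the gene. The strain, age and sex of the mice, and whether several mice were pooled, are among the details not given in the sources used here. No value below has a replicate and no test of genotype was possible, so every difference described separates a pair of libraries and not the genotypes in general. In pieces of whole tissue, fewer cells of a type and less RNA per cell cannot be told apart.

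Whole reads were recovered from the FPKM values, with scaling denominators of 17425640 reads for the wild type and 17658566 for the knockout. The recovered reads of the genes at 1 FPKM or more in either library summed to 17934334 and 18188332. These sums exceed the denominators, so the denominators cannot be read as totals of all recovered reads. The reason was not tested. The targeted gene Spib had 4.94 FPKM (247 reads) in wild type and 0.592 FPKM (30 reads) in the knockout library. The tissue label was checked against epithelial markers, and villin (Vil1) stood at 924 and 856 FPKM and Epcam at 979 and 931 FPKM in the wild-type and knockout libraries. Mitochondrially encoded genes held 7.65% of the summed FPKM in wild type and 10.01% in the knockout library. The 42 members together held 0.121% and 0.103%.

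In the intestine, stem cells at the base of the crypt and the transit-amplifying cells above them divide quickly, and their progeny leave the cycle as they move onto the villus. Replication genes are switched on late in G1, largely by E2F transcription factors. Mitosis genes follow in G2, when the MuvB core complex binds with B-MYB and FOXM1 to an element named CHR (cell cycle genes homology region), usually beside binding sites of the factor NF-Y. The same core in the DREAM complex keeps these genes silent in resting cells.

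The promoters of the members were searched for the letters of these elements, and some promoters are shown for this reason. Promoter windows from RefSeq (build GRCm38.p6, the same assembly as mm10) run from 250 bases before to 50 bases after each start, and 35 of the 42 members had such a window, 18 of them replication and 17 mitosis members. Aurkb, Ccna2, Ccne2, Gins2, Kif20a, Mcm4 and Tpx2 had none. Windows were searched on both strands for CHR (TTTGAA or TTCGAA), for E2F motifs (TTTCCCGC, TTTGGCGC, TTTCGCGC or TTTGCCGC) and for the NF-Y box (CCAAT). Matches were allowed to overlap, and a gene with several windows was counted if any of them held a match. Distances are from the RefSeq starts. For 28 of the 40 windows of members, bases just after the start also lie in a GENCODE M21 transcript of the gene, and for the rest no such match was found. A match is a description of the letters and shows neither binding nor a cause.

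Of the 17 mitosis members with a window, 14 held a CHR match (82.4%), against 3 of 18 replication members (16.7%) and 16.8% of the 9372 compared genes with a window. An E2F motif was found in 9 of 18 replication members (50%), in 1 of 17 mitosis members (5.88%, Cdk1) and in 4.48% of the compared genes. The NF-Y box was present in 16 of the 17 mitosis members and 11 of the 18 replication members, beside 42.5% of the compared genes. CHR and the NF-Y box stood together in 14 mitosis members and in 8.18% of the compared genes. Over all 32851 windows of 300 bases, the shares were 19.2% for CHR, 2.26% for E2F and 37.4% for the NF-Y box. The median GC content of the windows was 57.7% for the replication members, 58.0% for the mitosis members and 60.3% for the compared genes.

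The CHR matches of the mitosis members lay close to the start. In 13 of the 14 members at least 1 match began within 50 bases of it, Mki67 being the exception, and this held for none of the replication members and for 4.49% of the compared genes. Longer lists of other genes from the same processes had the same order. CHR was found in 65.3% of 75 other mitosis genes and 20.8% of 53 other replication genes with a window, and E2F motifs in 9.33% and 30.2%.

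The 180 bases before the start follow for 4 replication members, with every match in capitals. Mcm3 and Prim1 had the lowest and the highest log2 ratio of the compared replication members with a window, and Mcm5 and Mcm6, chosen after the matches were seen, show paired E2F motifs. The stretches lie at chr1:20820313-20820492 (minus strand), chr10:128015035-128015214 (plus strand), chr8:75109329-75109508 (plus strand) and chr1:128359706-128359885 (minus strand).
Mcm3: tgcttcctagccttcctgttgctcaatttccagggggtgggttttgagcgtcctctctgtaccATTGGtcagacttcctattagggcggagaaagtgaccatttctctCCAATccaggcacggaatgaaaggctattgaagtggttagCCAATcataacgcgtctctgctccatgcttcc
Prim1: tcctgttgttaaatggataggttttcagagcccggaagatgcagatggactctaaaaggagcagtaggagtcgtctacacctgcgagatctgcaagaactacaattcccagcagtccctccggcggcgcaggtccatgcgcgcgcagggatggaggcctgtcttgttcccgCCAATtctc
Mcm5: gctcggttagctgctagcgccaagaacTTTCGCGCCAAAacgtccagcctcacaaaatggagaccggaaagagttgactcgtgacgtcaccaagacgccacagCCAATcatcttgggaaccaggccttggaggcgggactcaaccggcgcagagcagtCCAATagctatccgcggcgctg
Mcm6: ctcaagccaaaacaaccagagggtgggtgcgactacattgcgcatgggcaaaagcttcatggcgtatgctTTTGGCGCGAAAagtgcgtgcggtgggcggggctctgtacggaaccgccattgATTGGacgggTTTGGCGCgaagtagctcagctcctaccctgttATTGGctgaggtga

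In Mcm5 the E2F motif TTTCGCGC begins 153 bases before the start, and TTTGGCGC, read on the other strand, overlaps it from base 149. Mcm6 carries the same pair in reverse at 110 and 106 bases and a further TTTGGCGC at 47 bases. Mcm3 has only NF-Y boxes in the stretch shown, and its E2F motifs begin 20 and 39 bases after the start. Prim1 has a single NF-Y box, 9 bases before the start.

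For the mitosis members, Aurka and Cenpf had the lowest and the highest log2 ratio among those with a window, and Cdk1 and Top2a, chosen after the matches were seen, show CHR matches upstream. Their stretches of 180 bases lie at chr2:172370571-172370750 (minus strand), chr1:189688087-189688266 (minus strand), chr10:69352913-69353092 (minus strand) and chr11:99024190-99024369 (minus strand).
Aurka: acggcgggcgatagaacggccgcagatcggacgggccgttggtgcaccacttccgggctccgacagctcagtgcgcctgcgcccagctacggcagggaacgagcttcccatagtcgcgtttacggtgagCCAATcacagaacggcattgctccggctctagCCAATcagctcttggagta
Cenpf: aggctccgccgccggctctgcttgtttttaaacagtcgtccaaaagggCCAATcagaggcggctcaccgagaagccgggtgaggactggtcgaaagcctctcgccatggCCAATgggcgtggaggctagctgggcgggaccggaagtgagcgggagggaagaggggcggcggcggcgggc
Cdk1: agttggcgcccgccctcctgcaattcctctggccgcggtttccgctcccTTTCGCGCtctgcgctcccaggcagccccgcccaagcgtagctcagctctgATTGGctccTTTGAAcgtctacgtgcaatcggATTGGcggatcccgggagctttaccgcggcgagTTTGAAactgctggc
Top2a: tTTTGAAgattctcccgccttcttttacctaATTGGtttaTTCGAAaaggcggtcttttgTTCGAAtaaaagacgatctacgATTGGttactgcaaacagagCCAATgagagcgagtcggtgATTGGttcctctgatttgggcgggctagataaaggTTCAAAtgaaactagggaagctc

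Cdk1 joins both kinds of element, with an E2F motif 131 bases before the start, CHR matches at 71 and 15 bases and NF-Y boxes at 80 and 48 bases. Top2a has CHR matches at 179, 140, 120 and 23 bases before the start, spaced among 4 NF-Y boxes. Aurka and Cenpf show pairs of NF-Y boxes upstream, and their CHR matches begin 33 and 3 bases after the start.

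**Figure D1:**
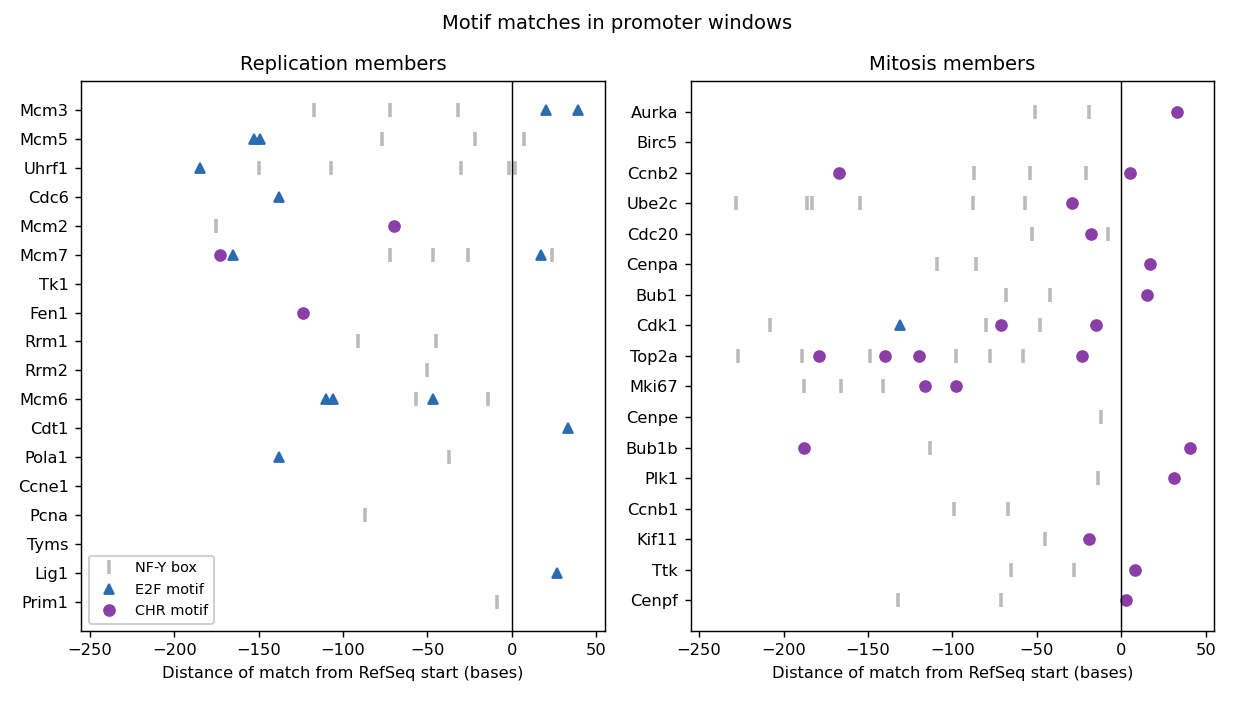
Positions of motif matches in promoter windows of the 18 replication members (left) and 17 mitosis members (right) with a RefSeq window, as the distance in bases of the first matched base from the start (negative is before it). Grey ticks are NF-Y boxes, blue triangles E2F motifs and purple circles CHR matches, genes run from the lowest log2 ratio at the top to the highest at the bottom, and CHR matches crowd around the start in the mitosis panel.

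Levels differed widely among the members and less between the libraries. Fen1 was below 1 FPKM in both libraries, and the other 41 members were compared. In the wild-type library the replication members compared ran from 1.72 FPKM for Gins2 to 51.3 for Pcna, and the mitosis members from 1.96 FPKM for Ttk to 29.95 for Mki67. The 41 members rested on 106 to 5251 reads a library. Folds are FPKM of the knockout over that of the wild type, so a value below 1 is lower in the knockout, and the interval beside a fold is an exact 95% Clopper-Pearson interval from the recovered reads. These intervals cover counting error only and leave out variation between mice, and since PCR reads are not independent molecules they can be too narrow.

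**Figure D2:**
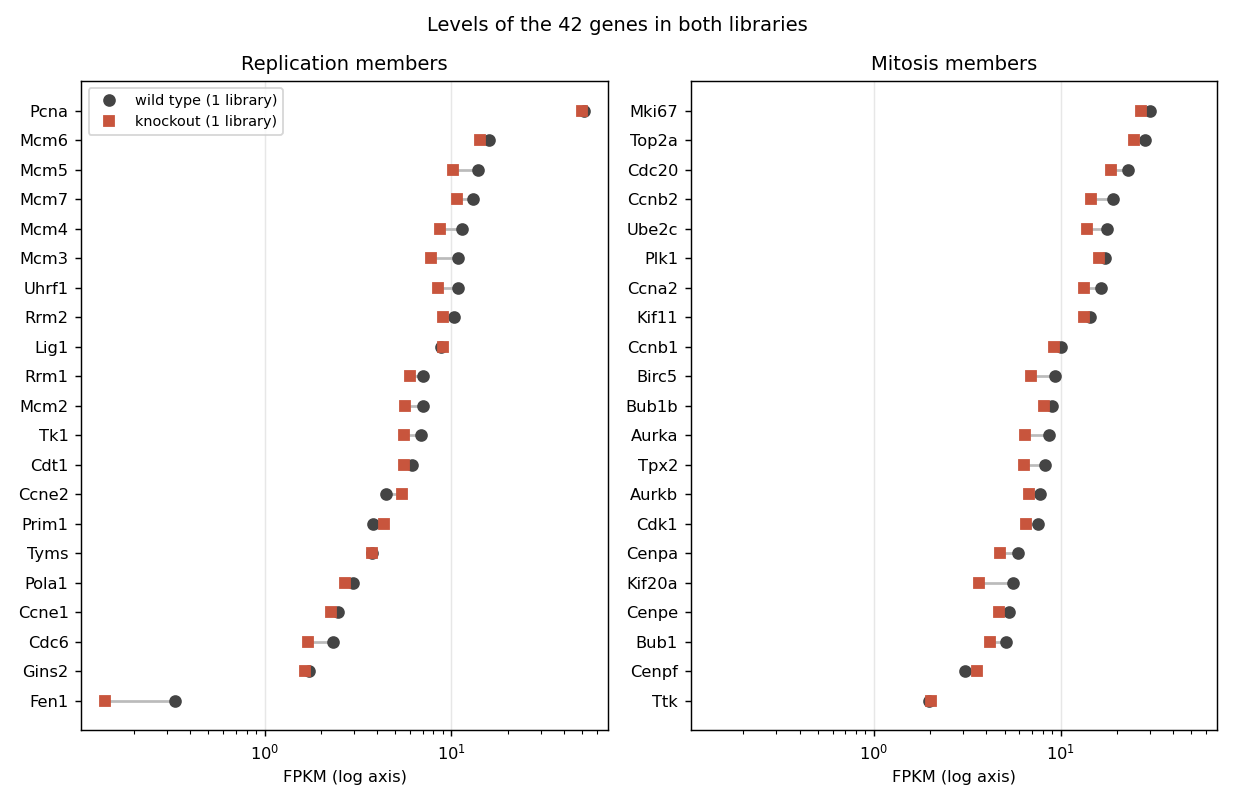
FPKM of each of the 42 members on a log axis, with a dark circle for the wild-type library and a red square for the knockout library (1 library each). Most squares lie a little to the left of their circles, those of Ccne2, Prim1 and Cenpf lie to the right (the interval of Prim1 spans 1), and Fen1 stands alone below 1 FPKM.

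Most members were slightly lower in the knockout library, and none was far lower. Of the 41 compared, 35 had a log2 ratio below 0 (16 of 20 replication and 19 of 21 mitosis members), where 58.7% of all 13479 compared genes did. The log2 ratio is log2((knockout FPKM + 1) / (wild-type FPKM + 1)). At least 20% lower by plain FPKM were 12 members (29.3%), beside 19.5% of all compared genes, and none was at least 25% higher, beside 11.6%. Only Kif20a was at least 1.5-fold lower, and none was 1.5-fold higher, beside 9.41% and 5.60% of the compared genes. No member reached a 2-fold difference in log2 ratio, which 2.51% of the compared genes did downward and 1.61% upward.

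Counting error was small enough to separate the libraries for most members. The interval lay below 1 for 26 members, above 1 for 2 (Ccne2 and Cenpf) and spanned 1 for 13. Kif11 is among the 26, but its interval could span 1 if its recovered reads are a multiple of the true number. Among the 10316 genes with recovered reads whose mean FPKM was between those of the lowest and the highest member, intervals lay below 1 for 29.2% and above 1 for 17.6%. Over all 42 members, 36953 reads stood against 32721, a fold of 0.874 (0.861 to 0.887).

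**Figure D3:**
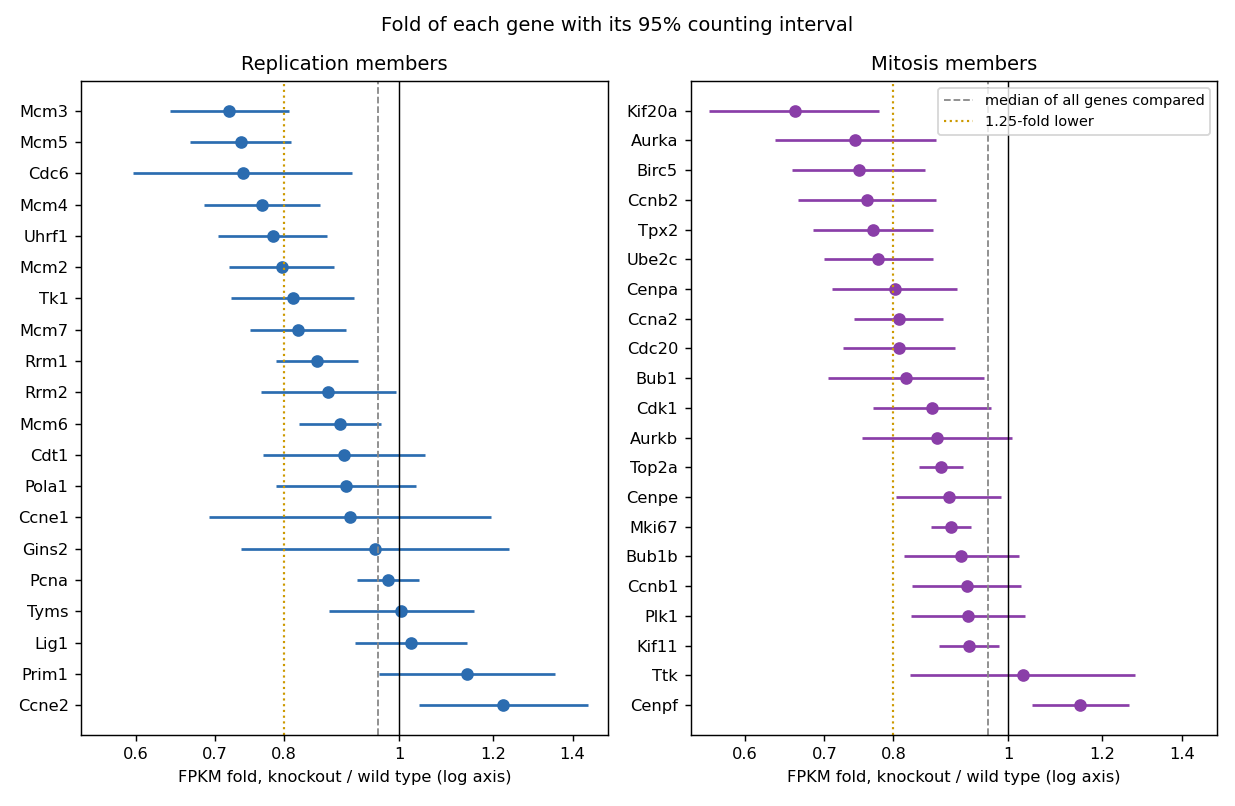
Fold of FPKM, knockout over wild type, on a log axis for the 20 replication members and 21 mitosis members compared, with bars for the 95% counting interval. The dashed line is the median fold of all compared genes (0.960), the dotted line marks a value 20% lower, and 26 intervals lie wholly to the left of 1.

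Among the replication members, the MCM helicase showed the clearest pattern. MCM2 to MCM7 form the ring that is loaded on origins in G1 and unwinds DNA in S phase. All 6 genes were lower in the knockout library, with every interval below 1, and their summed FPKM was 71.97 against 57.1 (fold of summed reads 0.799, 0.768 to 0.831). Mcm3 (ENSMUSG00000041859, minus strand of chromosome 1, 20802968 to 20820312, mm10) had 10.8 FPKM in wild type and 7.80 in the knockout library, a fold of 0.720 (0.641 to 0.807). Mcm5, whose contact with MCM2 is the gate of the ring, had 13.9 and 10.2 FPKM, a fold of 0.736 (0.667 to 0.811).

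Mcm4 had 11.3 and 8.68 FPKM, Mcm2 had 7.05 and 5.61, and Mcm7 had 13.0 and 10.7. The smallest difference of the ring was that of Mcm6, at 15.9 and 14.1 FPKM, a fold of 0.892 (0.823 to 0.966). Although the subunits meet in equal number in the ring, their FPKM spanned 2.25-fold in wild type and 2.52-fold in the knockout library. Mcm6 was the highest and Mcm2 the lowest in both libraries, and only the neighbours Mcm5 and Mcm7 swapped places in the order.

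The factors that load or activate the ring lay on the same side. Cdc6, a loading ATPase, had 2.32 FPKM in wild type and 1.71 in the knockout library, a fold of 0.739 (0.597 to 0.912). Its partner in loading, Cdt1, had 6.18 and 5.55 FPKM, and the interval of its fold (0.768 to 1.05) spans 1. Gins2, a subunit of the GINS complex that joins the ring when an origin fires, had 1.72 and 1.64 FPKM, with an interval of 0.736 to 1.24. Of its exon bases, 67.3% are also exons of Gse1 on the other strand.

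Genes of the elongating fork lay on both sides of 1. Pcna, the sliding clamp that holds polymerases on DNA, was the most abundant member, with 51.3 and 50.2 FPKM and a fold of 0.979 (0.921 to 1.04). Lig1, which seals the fragments of the lagging strand, had 8.79 and 8.996 FPKM, a fold of 1.02 (0.917 to 1.14). The interval of each of these folds spans 1.

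The subunits of the polymerase alpha and primase complex, which starts each new strand, pointed to opposite sides. Pola1 had 2.97 and 2.68 FPKM, a fold of 0.902 (0.788 to 1.03), and Prim1 had 3.81 and 4.35 FPKM, a fold of 1.14 (0.962 to 1.35). Both intervals span 1, so neither direction stands beyond counting error. The log2 ratios of these 4 fork genes ran from -0.11 to 0.15, where those of the 9 loading and firing genes ran from -0.43 to -0.042.

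The flap endonuclease gene Fen1 (chromosome 19, 10199132 to 10204169, minus strand) was near the floor, with 14 reads (0.332 FPKM) and 6 reads (0.140 FPKM). A floor of 3 reads corresponds to 0.0711 and 0.0701 FPKM for this gene. Exons of Gm10143 and Tmem258 on the other strand cover 84.2% of its exon bases and leave 383 bases of its own. How reads in shared bases were counted is a setting not given in the sources used here, and their part in the low value was not tested. Other members with over 10% of their exon bases shared were Gins2, Kif20a (29.3%), Ube2c (22.8%), Ccne2 (17.4%), Mcm7 (12.6%) and Ccna2 (12.5%).

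Enzymes of nucleotide supply were lower or equal. Ribonucleotide reductase makes deoxyribonucleotides from ribonucleotides. Its large subunit gene Rrm1 had 7.06 and 6.02 FPKM, a fold of 0.853 (0.788 to 0.923), and the S phase subunit gene Rrm2 had 10.3 and 8.99, a fold of 0.872 (0.765 to 0.993). Thymidine kinase Tk1, of the salvage route, had 6.84 and 5.57 FPKM, a fold of 0.813 (0.722 to 0.916). Thymidylate synthase Tyms, of the synthesis route to the same nucleotide, was nearly equal at 3.76 and 3.78 FPKM, a fold of 1.004 (0.872 to 1.16).

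The G1/S cyclins diverged. Cyclin E binds CDK2 and starts S phase. Ccne2 (chromosome 4, 11191351 to 11204779, plus strand) had 4.45 FPKM in wild type and 5.44 in the knockout library, and its fold of 1.22 (1.04 to 1.44) was the highest of all members. Ccne1 had 2.48 and 2.25 FPKM, from 115 and 106 reads, and its interval of 0.692 to 1.19 spans 1. Uhrf1, which guides maintenance methylation to newly copied DNA, had 10.8 and 8.44 FPKM, a fold of 0.782 (0.704 to 0.869).

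Mitosis members were lower in summed FPKM in each of their 5 role groups. Entry into mitosis is driven by CDK1 with cyclins A and B. Ccnb2 (chromosome 9, 70407692 to 70421547, minus strand) had 19.0 FPKM in wild type and 14.4 in the knockout library, a fold of 0.761 (0.665 to 0.870). Ccna2 had 16.5 and 13.3 FPKM, a fold of 0.808 (0.741 to 0.881).

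Ccnb1 was closer to equal, with 9.97 and 9.20 FPKM and an interval of 0.830 to 1.02 that spans 1. Their kinase Cdk1 had 7.55 and 6.51 FPKM, a fold of 0.862 (0.769 to 0.966). All 4 genes were thus on the lower side, and the summed reads of the group gave a fold of 0.839 (0.796 to 0.884).

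Spindle kinases and motors held the lowest single value. Kif20a, a kinesin of the central spindle and cytokinesis, had 5.53 and 3.65 FPKM, a fold of 0.661 (0.560 to 0.779). Aurka (chromosome 2, 172356190 to 172370535, minus strand), the kinase of centrosomes and spindle poles, had 8.64 and 6.42 FPKM, a fold of 0.743 (0.636 to 0.869). Its activator Tpx2 had 8.25 and 6.34 FPKM, a fold of 0.769 (0.685 to 0.864).

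The 2 other genes of this group were nearer to 1. Plk1, a kinase of many mitotic steps, had 17.3 and 15.99 FPKM, with an interval of 0.827 to 1.03. Kif11, the motor that pushes spindle poles apart, had 14.3 and 13.2 FPKM, a fold of 0.927 (0.875 to 0.982). That interval rests on recovered reads that could be a multiple of the true number. With fewer reads it would be wider and could span 1.

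Genes of the centromere, the chromosomal passenger complex and the spindle checkpoint were the most mixed of the mitosis members, with 6 lower and 2 higher. Survivin Birc5 and the kinase Aurkb belong to the passenger complex. Birc5 had 9.26 and 6.92 FPKM, a fold of 0.748 (0.657 to 0.851), and Aurkb had 7.77 and 6.77, with an interval of 0.752 to 1.007. The centromeric histone Cenpa had 5.91 and 4.74 FPKM, a fold of 0.802 (0.711 to 0.905).

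The large kinetochore proteins went to different sides. Cenpf (ENSMUSG00000026605, chromosome 1, 189640606 to 189688086, minus strand) was higher in the knockout library, at 3.08 and 3.54 FPKM, a fold of 1.15 (1.05 to 1.26). Cenpe, a kinetochore motor, had 5.25 and 4.68 FPKM, a fold of 0.891 (0.804 to 0.987). They have the most exon bases of the centromere genes listed (15433 and 8620), and they lay on opposite sides of 1.

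The checkpoint kinase Bub1 had 5.07 and 4.16 FPKM, a fold of 0.820 (0.705 to 0.954). Bub1b, whose product BUBR1 restrains the anaphase-promoting complex, had 8.95 and 8.17 FPKM, with an interval of 0.817 to 1.02. Ttk, the kinase at the top of this checkpoint, was nearly equal at 1.96 and 2.01 FPKM, from 168 and 175 reads. Of the 3 checkpoint genes, Bub1 alone had an interval below 1.

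The anaphase-promoting complex marks cyclin B and securin for destruction. Its activator Cdc20 had 22.98 FPKM in wild type and 18.6 in the knockout library, a fold of 0.809 (0.726 to 0.901). Its ubiquitin-conjugating enzyme Ube2c had 17.8 and 13.8 FPKM, a fold of 0.777 (0.699 to 0.864). The common histological marker of dividing cells, Mki67, had 29.95 and 26.8 FPKM, a fold of 0.895 (0.860 to 0.931). Top2a, which untangles sister chromatids, had 28.2 and 24.8, a fold of 0.877 (0.840 to 0.916). These 4 abundant genes all had intervals below 1.

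Replication and mitosis members were lower by similar amounts. The median log2 ratio was -0.17 for the 20 replication members and -0.19 for the 21 mitosis members, beside -0.049 over all compared genes. The median plain folds were 0.882 and 0.862, and 6 members of each class were at least 20% lower. The difference of the medians, mitosis minus replication, was -0.020, and it was 0.0022 between the longer lists of other mitosis and other replication genes. Summed reads of the classes gave folds of 0.873 (0.852 to 0.894) and 0.874 (0.858 to 0.891), whose intervals overlap.

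The summed FPKM of the replication members was 195 in wild type and 173 in knockout, and that of the mitosis members was 253 and 214. The ratio of mitosis to replication sums, which does not depend on how the libraries are scaled, was 1.297 and 1.24. Pcna alone held 51.3 of the 195 FPKM. The spread was wider within a class than between them, with folds from 0.720 to 1.22 among replication and from 0.661 to 1.15 among mitosis members.

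**Figure D4:**
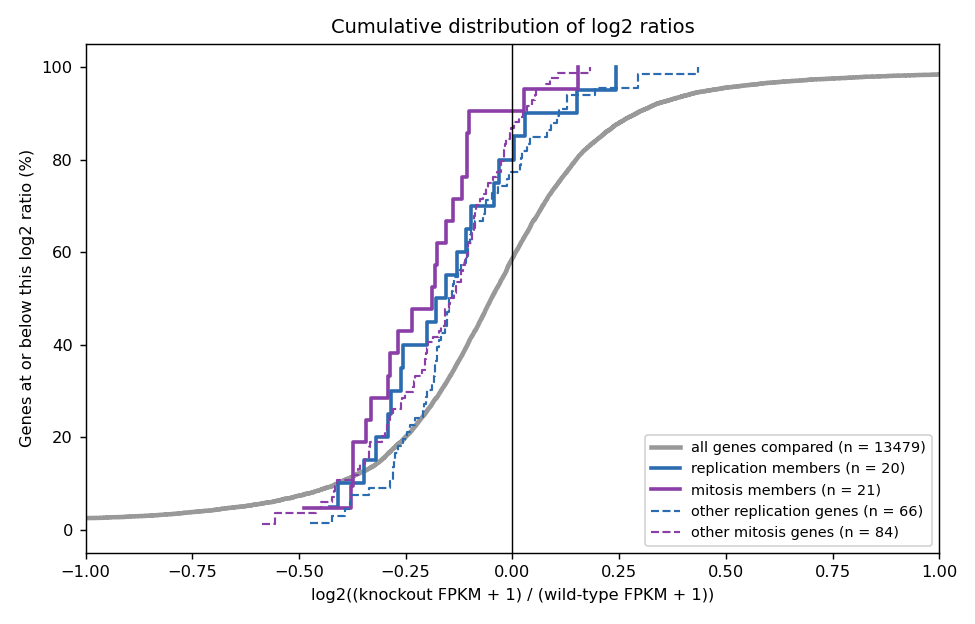
Cumulative share of genes (%) at or below each log2 ratio with a pseudocount of 1, shown from -1 to 1, for all 13479 compared genes (grey), the members (solid lines) and the longer lists of other genes (dashed lines). The 4 coloured curves lie left of the grey curve near 0 and close to each other, and they do not extend to the tails of the grey curve.

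By their medians, other genes of the same processes lay on the same side. Of 66 other replication genes compared, 51 (77.3%) had a log2 ratio below 0, beside 58.7% of all compared genes. Their median was -0.14. At least 20% lower were 12 (18.2%), a share below the 19.5% of all compared genes. At least 25% higher were 4, beside 11.6% of all compared genes. Among them, named after their values were seen, the clamp loader gene Rfc1 had 8.85 and 11.1 FPKM, the origin recognition gene Orc3 had 4.35 and 5.57, and Mcm9 had 1.26 and 1.58. The highest fold of this list, 1.41, belonged to a gene not named here. None was 1.5-fold different. Of 84 other mitosis genes compared, 73 (86.9%) were below 0, with a median of -0.14. At least 20% lower were 25 (29.8%), and none was at least 25% higher.

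The other mitosis genes at least 1.5-fold lower numbered 6 of 84, a smaller share than the 9.41% of all compared genes. Kif18b, a kinesin that shortens microtubules, had 3.41 and 1.93 FPKM, a fold of 0.568 (0.451 to 0.713). Cdca5 (sororin, which holds sister chromatids together) had 5.36 and 3.32 FPKM, and Gtse1 had 4.32 and 2.62. Separase Espl1 had 2.86 and 1.88 FPKM, and the centromere genes Cenpw and Cenpm had 1.34 and 0.713, and 2.91 and 1.93. The interval of Cenpm (0.435 to 1.002) spans 1.

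Checkpoint and repair genes lay at -0.16 by the median log2 ratio of 22 genes. Below 0 were 20 (90.9%) and at least 20% lower were 8 (36.4%), beside 58.7% and 19.5% of all compared genes. The 2 at least 1.5-fold lower were the Fanconi anaemia gene Fanca, at 1.48 and 0.918 FPKM, and Bard1, the partner of BRCA1, at 1.095 and 0.7005 FPKM. These are 2 of 22, a share near the 9.41% of all compared genes. No gene of this list was at least 25% higher.

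Regulators of the cycle had a median of -0.085 over 61 genes, nearer to that of all compared genes. At least 20% lower were 14 of them (23.0%), and 2 were at least 25% higher, beside 19.5% and 11.6% of all compared genes. Cyclin D1 (Ccnd1), which couples growth signals to G1 progression, had 22.2 and 12.6 FPKM, a fold of 0.567 (0.525 to 0.613). Myc, a growth-promoting transcription factor, had 13.1 and 7.38 FPKM, a fold of 0.563 (0.493 to 0.643). The CDK inhibitor Cdkn1c had 1.01 and 1.56 FPKM, and its interval (0.992 to 2.40) spans 1. These 3 of 61 were the regulators with a difference of at least 1.5-fold, beside 9.41% of all compared genes lower and 5.60% higher.

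Crypt stem cell markers lay nearer to the median of all genes. Of 19 compared, 12 (63.2%) were below 0, with a median log2 ratio of -0.093. At least 20% lower were 2 (10.5%). The shares of all compared genes were 58.7% and 19.5%. Lgr5, the receptor that marks crypt base stem cells, had 2.21 and 2.01 FPKM, with an interval of 0.787 to 1.05, and the abundant stem cell product Olfm4 had 336 and 370 FPKM, a fold of 1.10 (1.08 to 1.12). The summed FPKM of the stem cell list was 522 and 551, opposite in sign to its median, and without Olfm4 it was 186 and 181. Set against that sum within each library, the members stood at 0.858 in the wild type and 0.702 in the knockout, and at 2.41 and 2.14 without Olfm4. Set against the summed epithelial markers (8232 and 8256 FPKM), they stood at 0.0545 and 0.0469.

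Markers of B cells, plasma cells and T cells had lower median log2 ratios than the members, and those of germinal centre B cells, which divide rapidly, did not (-0.081). All 11 B cell markers compared of 12 had log2 ratios below 0, with sums of 33.9 and 13.1 FPKM over the list, and Cd79a had 9.10 and 3.54 FPKM. T cell and intraepithelial lymphocyte markers (13 of 15 compared, all below 0) summed to 101 and 42.9 FPKM, and plasma cell markers (8 of 9 below 0) to 2007.5 and 527 FPKM. Of the germinal centre list, 6 of 11 genes were compared, with 5 below 0 and sums of 108 and 100.4 FPKM that rest mainly on Plxnb2 and Efnb1. Its compared genes ran from a fold of 0.316 (0.205 to 0.474) for Fcer2a to 1.27 (1.04 to 1.53) for Bcl6, and its other 5 genes were below 1 FPKM in both libraries. No marker of these lists was at 0 in either library. The part of these cells in the lower values of the members was not tested.

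Lists of other cells lay on either side. Enterocyte markers had a median log2 ratio of 0.10 but summed to 15619 and 14271 FPKM, again opposite in sign. Myeloid markers summed to 228 and 156 FPKM, with 9 of 10 below 0. Paneth cell markers summed to 22910 and 37270 FPKM, with 7 of 10 above 0 and lysozyme Lyz1, named after its values were seen, at 5754 and 4250. Goblet cell markers summed to 5895 and 7773 FPKM, with 7 of 9 above 0. Stroma and muscle markers summed to 610 and 667, with Acta2 at 210.2 and 208. Paneth and goblet cells have left the cycle, and their part in the values of the members was not tested either.

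**Figure D5:**
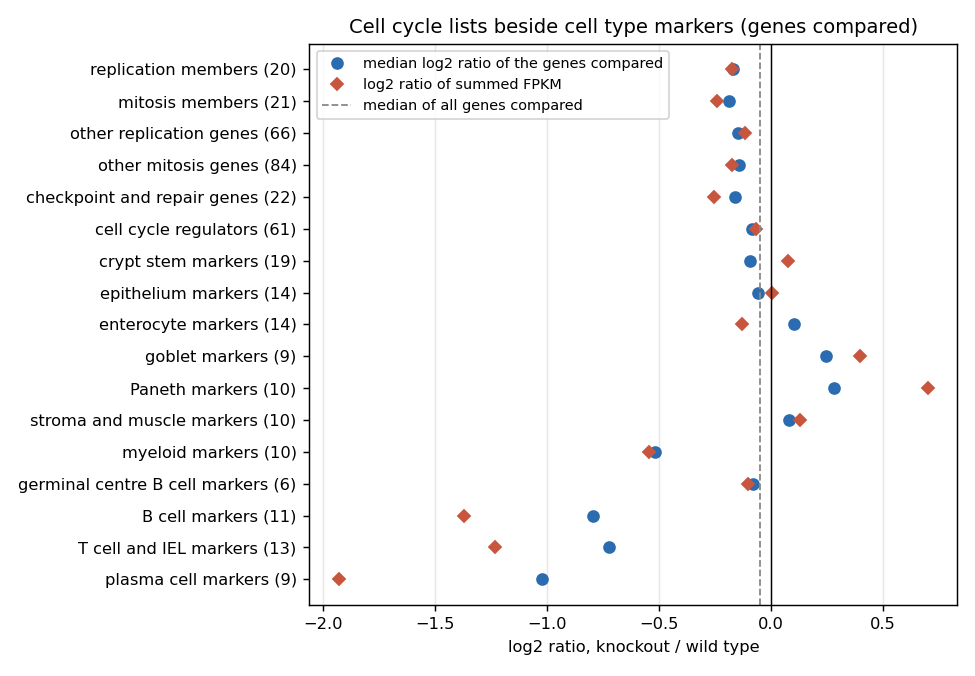
Log2 ratio of knockout over wild type for each gene list, with the median over compared genes as a blue circle (pseudocount 1) and the ratio of summed FPKM over the list as a red diamond, and the number of genes compared in parentheses. The cell cycle lists lie to the left of 0, lymphocyte lists lie far to the left apart from the germinal centre list, and Paneth and goblet lists lie to the right.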

How the data were processed

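Per the labels' protocols, RNA was extracted with TRIzol and cDNA was amplified by SMART-Seq II. The authors deposited FPKM values for 27275 genes in 2 libraries, 1 per genotype. The submitters' processing notes name Bowtie2 2.2.3, HTSeq 0.6.0 and mm10, without roles. The strand setting, annotation and filters are steps not given in the sources used here.

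Gene IDs were joined to GENCODE M21 (GRCm38, the assembly of mm10) for coordinates and exon lengths, and 27222 matched. Compared were the 13479 genes that reached 1 FPKM in either library. FPKM times exon length stepped in whole reads for 90.5% of values above 0 in each library, within 0.01 read, which gave the scaling denominators. Reads of 40 members followed from exon length, and those of Kif11 and Kif20a from the ratio of the 2 values. The reads of Kif11 could be a multiple of the true number. Those of Kif20a (366 and 245) share no common factor, so they could be too low but not a multiple of the true number. The recovery was tested on simulated data.

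Members and lists were chosen with earlier results of these data known. Of 426 listed genes, 2 were not analysed, and some single-gene values are not reported here. Named genes are Spib, all members, other list genes at least 1.5-fold different, and set markers. A few others were named after their values were seen. Alternatives were pseudocounts of 0.1 and 5, other filters, centring and rescaling. Python 3.11.15, SciPy 1.17.1 and pandas 2.3.3 were used.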

Additional observations from a re-analysis of the deposited data

How the results depend on the processing

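No paired analysis was possible because there is 1 library per genotype, and no replicate could be left out for the same reason. The median log2 ratio of the replication members ranged from -0.23 to -0.12 over 6 alternatives (pseudocounts of 0.1 and 5, no filter, a filter of 5 FPKM, centring on the median of all genes, and rescaling to equal sums without the 20 most abundant genes of either library), and that of the mitosis members from -0.23 to -0.14. Counts of members at least 20% lower ran from 4 to 7 and from 4 to 6. Mitosis minus replication ran from -0.068 (summed FPKM) to 0.0030 (summed reads) over 12 alternatives, of which the plain ratio, leaving out overlapped members and summed reads were chosen after seeing the data, so its sign is not fixed. Leaving Olfm4 out of the stem marker sum, also chosen after seeing the data, took the log2 ratio of members to that sum from -0.29 to -0.17. The other replication median was -0.19 with a pseudocount of 0.1, -0.065 with 5 and -0.095 when centred. The other mitosis median was -0.085 with a pseudocount of 5 and -0.093 when centred. The repair median was -0.074 with a pseudocount of 5, -0.11 when centred and -0.29 over the 2 genes left by a filter of 5 FPKM. A larger pseudocount and centring shrink these values by construction. Wilson intervals gave the same 26 and 2 members. Depth limits the members below 300 reads, such as Ccne1 (interval 0.692 to 1.19), Gins2 and Ttk.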

Other observations

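Replication members with an E2F motif and mitosis members with a CHR match had lower median log2 ratios than those without. Among compared replication members the median log2 ratio was -0.26 for the 9 with an E2F motif and -0.14 for the 8 without. Among mitosis members it was -0.18 for the 14 with a CHR match and -0.14 for the 3 without. These medians are descriptions with no test, and folds within each of these sets spanned a wider range than the gap between them. The gap was not particular to these motifs. Replication members with a CHR match stood at -0.27 (2 genes) and those without at -0.15 (15). With the NF-Y box they stood at -0.20 (11) and without it at -0.11 (6). In mitosis members the NF-Y split went the other way, with -0.17 (16) against -0.37 (1), and the E2F split was -0.19 (1) against -0.17 (16). Members without a window, such as Kif20a, are left out.

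Gene length moved weakly with the log2 ratio. With the compared genes in 5 bins of equal size by exon length, the median log2 ratio from the shortest to the longest bin was -0.083, -0.071, -0.052, -0.040 and -0.022. Cenpf, the longest member with 15433 exon bases, had a log2 ratio of 0.15, while Ccnb2, the shortest compared member with 1531 bases, had -0.37. The members next in length to Cenpf were below the median of the longest bin. These were Rrm1 (11012 bases) at -0.20, Mki67 (10061) at -0.16 and Top2a (9013) at -0.18. The part of length in these values was not tested.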
